A study of Mus musculus with 4 samples.

Results

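The kappa and lambda light chain variable (V) segments are the genes whose symbol begins with Igkv or Iglv followed by a number, which selected 163 of the 56691 genes in the deposited count tables, 160 of them kappa and 3 lambda. They were read in poly(A) RNA of Ter119+ cells from mouse bone marrow, in 2 libraries labelled Med16 fl/fl and 2 labelled Med16 KO, all with the developmental label erythroid stage and a time label of 3 weeks. Fl/fl stands for both alleles of Med16, a subunit of the Mediator complex of transcription, flanked by loxP sites. The sources used here do not give the promoter that drives the deletion, the age and number of mice behind a library, or what the time label counts. The labels do not tie the 2 libraries of a genotype to different mice. The p-values therefore reflect only the spread among these libraries, which may be technical. The fit drew that spread mostly from all tested genes together, with 13.1 prior against 2 residual degrees of freedom.

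An antibody light chain is built from a kappa or a lambda locus. In a developing B cell, the recombinase joins a V segment to a joining (J) segment, and the transcript is spliced to a constant segment. The V segment encodes most of the variable domain, including the first and second loops that touch antigen and the start of the third. Each B cell and its descendants normally express a single light chain, so the mixture of V transcripts reflects the mixture of B lineage cells and how much RNA each of them makes. Plasma cells, which secrete antibody, hold far more immunoglobulin RNA per cell than other B cells do.

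Segments of a family resemble one another closely, which decides how well short reads tell them apart. The sequences below are the last 150 bases of the sense strand of the GENCODE M21 transcripts (mouse build GRCm38), and they show the segments on which the results turn. Capitals mark the bases that differ within a pair. The first pair are the 2 leading segments of the Med16 fl/fl libraries, which differ at 27 of the 150 bases.
Igkv14-100: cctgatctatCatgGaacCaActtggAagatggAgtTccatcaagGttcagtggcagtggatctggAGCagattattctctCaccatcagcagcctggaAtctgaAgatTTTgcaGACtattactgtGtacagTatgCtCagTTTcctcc
Igkv14-126: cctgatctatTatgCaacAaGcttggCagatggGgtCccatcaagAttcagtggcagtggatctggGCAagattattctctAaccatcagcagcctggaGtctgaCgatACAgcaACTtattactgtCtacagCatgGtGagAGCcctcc
The second pair belong to family 3, lie close together in the locus and were each seen mainly in opposite genotypes, and they differ at 15 bases.
Igkv3-2: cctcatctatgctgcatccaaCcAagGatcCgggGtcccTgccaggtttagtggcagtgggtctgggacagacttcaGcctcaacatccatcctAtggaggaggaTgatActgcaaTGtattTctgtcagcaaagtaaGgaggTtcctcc
Igkv3-4: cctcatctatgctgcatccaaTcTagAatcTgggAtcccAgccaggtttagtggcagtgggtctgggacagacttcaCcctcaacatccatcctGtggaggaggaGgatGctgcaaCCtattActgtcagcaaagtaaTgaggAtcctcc
The third pair are the main lambda segments, which differ at 5 bases.
Iglv1: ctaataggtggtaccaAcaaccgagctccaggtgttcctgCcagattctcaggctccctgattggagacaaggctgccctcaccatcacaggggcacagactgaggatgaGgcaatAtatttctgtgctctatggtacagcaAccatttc
Iglv2: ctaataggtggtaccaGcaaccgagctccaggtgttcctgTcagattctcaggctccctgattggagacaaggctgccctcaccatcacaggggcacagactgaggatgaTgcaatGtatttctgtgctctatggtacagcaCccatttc
The last is the leading segment of the Med16 KO libraries, the sole member of its family, shown without capitals.
Igkv19-93: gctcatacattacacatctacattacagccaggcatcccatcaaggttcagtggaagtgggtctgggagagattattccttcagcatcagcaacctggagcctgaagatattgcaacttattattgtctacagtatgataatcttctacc

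Over the last 280 bases, identity was 81.1% for the first pair, 91.1% for the second and 97.5% for the third. In Igkv19-93, Igkv14-100 and Igkv14-126, 100% of the 50-base windows of the transcript occurred in no other light chain V transcript. For Iglv1 and Iglv2 the share of such windows was 77.8% and 76.0%, for Igkv4-55 46.7% and for Igkv6-20 35.9%. Counts of segments with close copies are therefore uncertain, since reads shared by copies may have been left unassigned. Reads without a unique alignment were counted apart from the genes and made up 23.6 to 26.4% of all reads. This covers the whole library, and the part that came from V segments is not known.

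Libraries held 6749196 to 7216333 counts assigned to genes, so that 1 count equals 0.140 to 0.147 CPM (counts scaled to a library size adjusted by TMM factors), and a count of 0 allows up to 3 counts per library, or 0.421 to 0.441 CPM. Intervals and these floors cover counting error only. Med16 itself had 164 and 127 counts in the Med16 fl/fl libraries and 16 and 30 in the Med16 KO libraries. Its log2 fold change, here and throughout Med16 KO minus Med16 fl/fl, was -2.64 (SE 0.34, adjusted p = 4.6e-05 by edgeR's quasi-likelihood test). The 9 erythroid markers summed to 164224 to 172271 CPM in the 4 libraries, most of it globin, and edgeR called 2 of them higher in Med16 KO and 7 lower (median log2 fold change -0.41). On the log2 scale the globin genes of the list went both ways, with Hba-a1 higher by 0.21 and Hbb-bs lower by 0.17. Alas2 was higher by 0.13, while the transferrin receptor gene Tfrc fell by 1.02, Epb42 by 0.73 and Slc4a1 by 0.41. Among all genes tested, 8.50% were called higher and 9.89% lower. Of the neutrophil markers 8 of 9 were called higher, and of the monocyte markers 4 of 6. The part of these shifts in the V segment counts was not tested. The 9 neutrophil markers summed to 10246 and 10386 CPM in Med16 fl/fl and 15222 and 15644 CPM in Med16 KO. Values of the libraries are given below in the order Med16 fl/fl 1, Med16 fl/fl 2, Med16 KO 1, Med16 KO 2.

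Light chain V segments took a larger share of the RNA in the Med16 KO libraries. Together they had 1206, 1094, 4862 and 4603 counts. As a share of assigned counts this was 0.0167% (95% exact binomial interval 0.0158 to 0.0177), 0.0155% (0.0146 to 0.0165), 0.0700% (0.0680 to 0.0720) and 0.0682% (0.0662 to 0.0702). The mean was 0.0161% ± 0.000842 in Med16 fl/fl and 0.0691% ± 0.00125 in Med16 KO (SD, n = 2 each), a ratio of 4.29. The intervals of the genotypes lay apart, while the libraries of a genotype lay close together. More B lineage cells and more light chain RNA per cell cannot be told apart in such bulk libraries. With 2 libraries against 2, an exact permutation test cannot go below a p of 1/3, so totals and shares are given without a p.

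Lambda V segments took a larger part of the light chain V counts in Med16 KO. Lambda V counts were 77, 71, 744 and 558, which is 6.38% (5.07 to 7.92), 6.49% (5.10 to 8.12), 15.3% (14.3 to 16.3) and 12.1% (11.2 to 13.1) of light chain V counts. Both Med16 KO libraries lay above both Med16 fl/fl libraries, with intervals that did not meet. The kappa constant gene Igkc moved with its V segments: it had 1542, 1494, 6002 and 6038 counts, and kappa V counts per Igkc count were 0.732, 0.685, 0.686 and 0.670. Lambda V counts per count of Iglc1, Iglc2 and Iglc3 varied more, at 0.794, 0.530, 1.11 and 0.933. Measured by these constant genes, lambda made up 5.92%, 8.23%, 10.1% and 9.01% of kappa and lambda constant counts, a smaller difference than by V segments. The summed heavy chain V segments had 816, 814, 3290 and 3175 counts, or 0.677, 0.744, 0.677 and 0.690 per light chain V count. Heavy and light chain V counts thus kept nearly the same proportion in all 4 libraries.

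Of the 163 segments, 76 had no count in any library and 48 had enough counts to enter the test. The other 115 were not tested, and the 39 of them with any count held 352 counts in all, at most 36 each. All 48 tested segments are classed as V genes, not pseudogenes, in GENCODE M21, which lists 103 of the 163 as genes and 60 as pseudogenes. The pseudogenes together held at most 0.580% of the light chain V counts of a library.

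By the quasi-likelihood test with Benjamini-Hochberg adjustment over all 13052 genes tested, 26 segments were higher in Med16 KO, where 8.50% of all genes tested were called higher. Lower calls numbered 5, where 9.89% of all genes tested were called lower. Among the 48 tested segments this is 54.2% higher and 10.4% lower, so the share of lower calls was near that of all genes. A segment could enter the test through the genotype in which it was high, so these shares do not describe all 163. DESeq2 gave an adjusted p for 24 segments and called 20 higher and 1 lower. With edgeR, lower calls numbered 2 without Med16 fl/fl 1, 3 without Med16 fl/fl 2 and 10 without Med16 KO 2. The median log2 fold change was 2.47 over the 48 tested segments and 0.02 over all genes tested. Entry through the high genotype can also move the median of the segments, so it does not describe all 163 either.

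**Figure D1:**
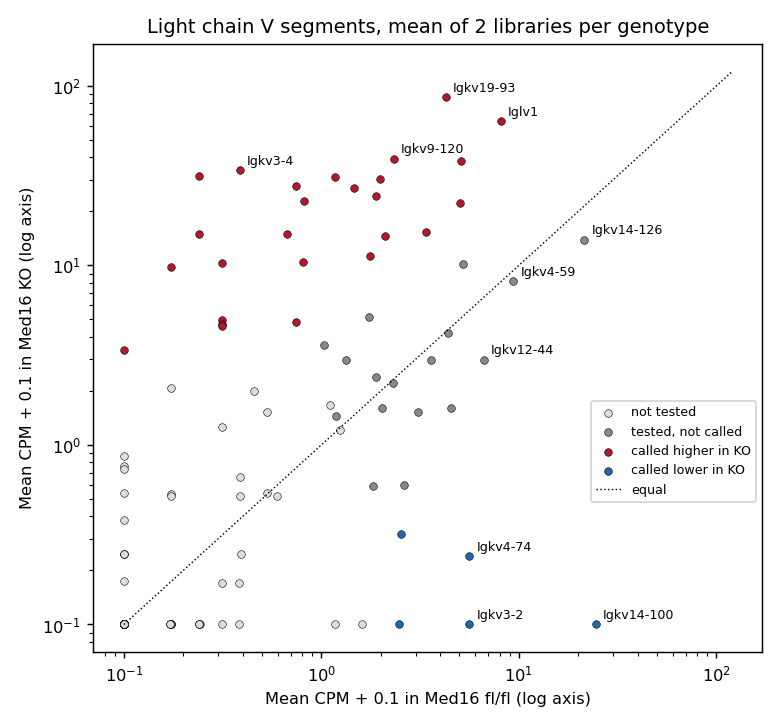
Each point is a light chain V segment, at its mean CPM in the 2 Med16 fl/fl libraries (x) and the 2 Med16 KO libraries (y), with 0.1 CPM added and both axes logarithmic. Igkv14-100 lies at the lower right with 24.3 CPM in Med16 fl/fl and no count in Med16 KO, and Igkv19-93 at the top with 4.16 and 86.2 CPM.

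The clearest change was an exchange of the leading segment. Igkv19-93, the only segment of family 19, had 28, 30, 695 and 508 counts. It led both Med16 KO libraries and rose from 4.16 ± 0.273 to 86.2 ± 16.2 CPM, a log2 fold change of 4.37 (SE 0.21, adjusted p = 1.03e-09). Igkv14-100 led both Med16 fl/fl libraries with 179 and 161 counts and had no count in either Med16 KO library. Its mean in Med16 fl/fl was 24.3 ± 1.41 CPM, at least 56.4-fold above the limit of 3 counts per library in Med16 KO (adjusted p = 8.36e-08). Igkv14-126, the second segment of Med16 fl/fl, had 159, 139, 85 and 106 counts, and its log2 fold change of -0.63 (SE 0.23) missed the threshold (adjusted p = 0.073). Without Med16 KO 2 the fall of Igkv14-126 was called, at a log2 fold change of -0.85 (adjusted p = 0.0029). As a share of light chain V counts, Igkv14-126 took 13.2%, 12.7%, 1.75% and 2.30%.

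Lambda transcripts came mainly from Iglv1 and Iglv2, whose near identity makes their split uncertain. Iglv1 had 61, 51, 488 and 399 counts, from 8.02 ± 0.877 to 63.6 ± 6.95 CPM, with a log2 fold change of 2.99 (SE 0.19, adjusted p = 2.83e-08). Iglv2 had 13, 6, 230 and 145 counts and a log2 fold change of 4.28 (SE 0.38, adjusted p = 9.44e-07). Iglv3, with 3, 14, 26 and 14 counts, had equal counts in its nearest libraries and was not called. In Iglv1 and Iglv2 every Med16 KO library exceeded both Med16 fl/fl libraries. The lambda constant genes Iglc1 and Iglc2 were called higher as well, with log2 fold changes of 2.79 (SE 0.20) and 2.65 (SE 0.32), while Iglc3 (0.91, SE 0.40, adjusted p = 0.134) was not.

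Among the other abundant kappa segments, Igkv9-120 had 15, 16, 263 and 281 counts, a log2 fold change of 4.13 (SE 0.26, adjusted p = 2.98e-08). Igkv4-55 had 33, 37, 276 and 257 counts and a log2 fold change of 2.93 (SE 0.23, adjusted p = 2.74e-07). Igkv6-15 had 9, 6, 219 and 211 counts (log2 fold change 4.82, SE 0.32). In each of these the 2 Med16 KO libraries nearly coincided and stood far above the Med16 fl/fl libraries. Igkv12-46 had 9, 17, 201 and 216 counts (3.995, SE 0.32), Igkv8-27 had 7, 2, 184 and 198 (5.38, SE 0.40), and Igkv6-23 had 3, 7, 177 and 142 (4.96, SE 0.41). The smallest log2 fold changes among the 26 were those of Igkv16-104, with 29, 40, 171 and 139 counts (2.16, SE 0.28), and Igkv1-117, with 20, 26, 117 and 96 counts (2.21, SE 0.34). Their shares of the light chain V counts overlapped between genotypes, with Igkv16-104 at 2.40%, 3.66%, 3.52% and 3.02%.

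Some segments were common in Med16 KO and nearly unseen in Med16 fl/fl. Igkv3-4 had 2, 2, 248 and 223 counts, a log2 fold change of 6.80 (SE 0.38, adjusted p = 8.11e-09). Its family neighbour Igkv3-2 did the reverse, with 41, 36, 0 and 0 counts, at least 12.8-fold lower in Med16 KO (adjusted p = 2.3e-04). The 15 bases by which they differ are spread over the stretch printed above, and 65.9% of the windows of Igkv3-4 and 78.7% of those of Igkv3-2 were unique. Igkv4-50 had 2, 0, 178 and 255 counts, and its scaled count ratio of Med16 KO to Med16 fl/fl was 217 (95% counting interval 59.7 to 1799). Igkv5-48 had 2, 0, 108 and 100 counts (ratio 104, interval 28.5 to 867). Igkv6-20 had 0, 1, 77 and 58 (ratio 135, interval 23.9 to 5387), Igkv13-84 had 2, 1, 77 and 65 (ratio 47.5, interval 15.9 to 233), and each of these 4 had at most 3 counts in Med16 fl/fl. Less common was Igkv4-57-1, with 0, 0, 27 and 19 counts, at least 7.66-fold higher in Med16 KO (adjusted p = 0.0019). It took 0.555% and 0.413% of the light chain V counts of Med16 KO. The interval of its share in Med16 KO 2 (0.249 to 0.644%) met those of Med16 fl/fl (up to 0.305 and 0.337%). Igkv6-20 is 98.2% identical to Igkv6-29 and Igkv13-84 is 97.1% identical to Igkv13-85, so their counts are uncertain.

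Igkv13-85, the near copy of Igkv13-84, had 6, 17, 74 and 81 counts and a log2 fold change of 2.74 (SE 0.47, adjusted p = 6.5e-04). Some rises differed in size between the Med16 KO libraries. Igkv5-39 had 13, 12, 116 and 219 counts (log2 fold change 3.74, SE 0.39), Igkv8-24 had 7, 1, 65 and 141 (4.66, SE 0.61), and Igkv2-109 had 13, 15, 122 and 80 (2.84, SE 0.38). In Igkv5-39 and Igkv8-24 the second Med16 KO library was the higher, and in Igkv19-93, Iglv2 and Igkv2-109 the first.

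The lower calls besides Igkv14-100 and Igkv3-2 rested on few counts. Igkv4-74 had 45, 32, 2 and 0 counts, a scaled ratio of Med16 fl/fl to Med16 KO of 38.4 (interval 10.3 to 323, adjusted p = 8.9e-04). Igkv4-80 had 14, 19, 0 and 0 counts, at least 5.49-fold lower in Med16 KO (adjusted p = 0.0054). Igkv1-88 had 16, 18, 0 and 3 counts, a ratio of 11.3 (interval 3.55 to 57.5, adjusted p = 0.037). Without Med16 fl/fl 1 these 3 calls were lost, at adjusted p of 0.063, 0.111 and 0.398, and that of Igkv1-88 was lost also without Med16 fl/fl 2 (0.525) or Med16 KO 1 (0.059). Without Med16 fl/fl 2, Igkv4-80 did not pass the filter on low counts and was not tested. Igkv10-96, the leading segment of family 10, had 33, 38, 65 and 75 counts and missed the threshold (log2 fold change 0.98, SE 0.35, adjusted p = 0.061). It was called without Med16 KO 1 (adjusted p = 0.0080) and when only library size was used for scaling (0.048). The 17 segments tested and not called had log2 fold changes from -2.28 to 1.90.

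**Figure D2:**
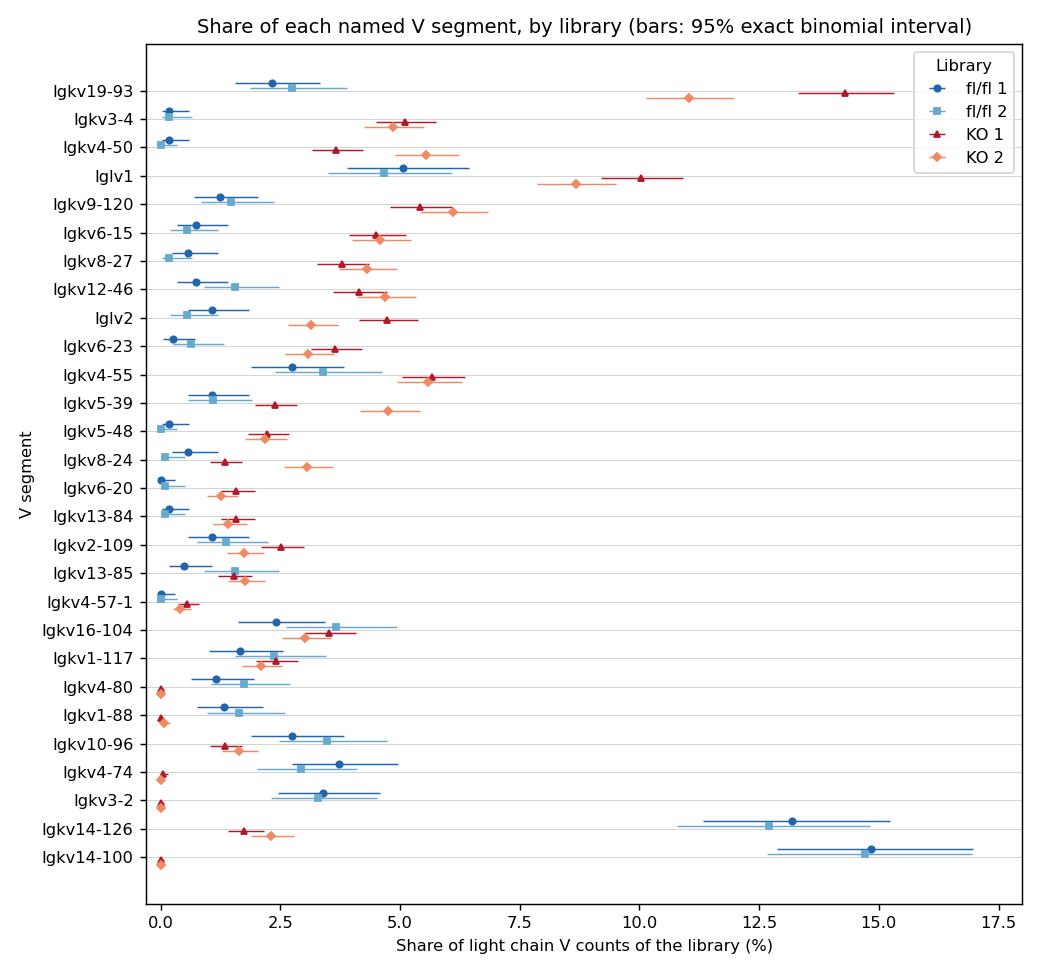
Share of each of 28 named V segments in the light chain V counts of its library (x, percent), 1 marker per library with its 95% exact binomial interval. The Med16 fl/fl libraries share high values of Igkv14-100 and Igkv14-126 (12.7 to 14.8%), and the Med16 KO libraries share Igkv19-93 (14.3 and 11.0%) and Iglv1 (10.04 and 8.67%).

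A share of the light chain V counts answers another question than a level: it asks which segments made up the repertoire whatever its size. On this scale 15 segments lay higher in Med16 KO, with both intervals above both intervals of Med16 fl/fl, and 16 lay lower. How large a part of all genes would lie apart by this rule was not computed, so these numbers only describe the segments. Shares within a library also add up to a fixed whole, so rises of some segments lower the shares of others. The 15 were all among the 26 called higher, and the other 11 called segments took no clearly separate share. The 16 comprised the 5 called lower, 9 tested and not called, and Igkv11-125 (7, 14, 0 and 0 counts) and Igkv4-91 (11, 4, 0 and 0 counts), which were not tested. Igkv4-59, the third segment of Med16 fl/fl 1, had 79, 51, 68 and 45 counts, nearly level, yet its share went from 6.55% and 4.66% to 1.40% and 0.978%. Igkv12-44 had 41, 50, 17 and 23 counts, and its share went from 3.40% and 4.57% to 0.350% and 0.4997%. Igkv17-121 had 32, 28, 33 and 24 counts (log2 fold change -0.07, SE 0.47). These segments held their count or lost some while the total grew. Between the Med16 fl/fl libraries the interval of 1 segment lay apart (Igkv8-19, 0 and 15 counts). Between the Med16 KO libraries those of 13 did, Igkv19-93, Igkv4-50 and Igkv5-39 among them. The Med16 KO libraries held more light chain V counts, which narrows intervals, so these numbers do not compare the spread within the genotypes. Intervals count reads only, and reads of a single cell's transcripts are not independent.

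By family, Med16 fl/fl was dominated by Igkv14 and Igkv4 and Med16 KO by Igkv4, Igkv19, Igkv6 and Iglv1. Igkv14 made up 28.8%, 28.2%, 2.32% and 2.78% of light chain V counts, nearly all of it from Igkv14-100 and Igkv14-126 in Med16 fl/fl. Igkv1 took 8.46%, 8.96%, 2.80% and 3.26%. Igkv17 took 2.82%, 2.93%, 0.926% and 0.695%, and Igkv10 3.40%, 3.56%, 1.42% and 2.11%. In each of these 4 families both Med16 KO libraries lay below both Med16 fl/fl libraries. Igkv11 had 0.580% and 1.28% in Med16 fl/fl and no count in Med16 KO.

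The families with larger shares in Med16 KO were of several sizes. Igkv19 took 2.32%, 2.74%, 14.3% and 11.0%. Igkv6 took 4.81%, 3.84%, 10.2% and 9.71%, Igkv9 took 2.07%, 2.102%, 5.80% and 6.19%, and Igkv5 took 1.58%, 1.10%, 5.06% and 7.84%. Igkv8 took 3.23%, 2.65%, 5.74% and 8.08%. The rise of family 19 is that of a single gene, whereas in family 6 Igkv6-15, Igkv6-23 and Igkv6-20 all rose. Igkv13 took 0.663%, 1.65%, 3.11% and 3.17%, and Iglv2 took 1.08%, 0.548%, 4.73% and 3.15%.

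Other families differed less in share while their members changed. Igkv3 took 5.80%, 5.76%, 5.96% and 6.19%, although Igkv3-2 was replaced by Igkv3-4 within it. Igkv4, the family with the most members in use, took 21.1%, 17.1%, 15.8% and 16.6%, slightly lower in both Med16 KO libraries, with Igkv4-50 and Igkv4-55 up and Igkv4-74 and Igkv4-80 down. Igkv12 (4.23%, 6.31%, 4.998% and 5.39%) and Igkv16 (2.40%, 3.66%, 3.52% and 3.02%) overlapped between genotypes. Igkv2 took 1.24%, 1.74%, 2.51% and 1.78%, so that its genotypes nearly met. Of the 20 kappa families, 18 had a count. Family usage alone therefore hid part of the difference that single segments showed.

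**Figure D3:**
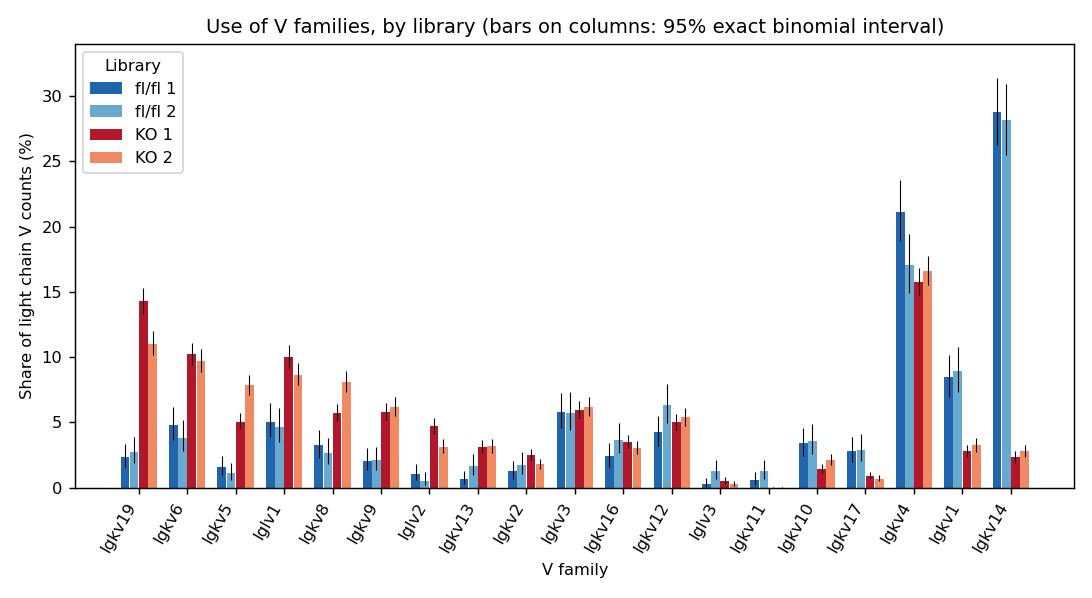
Share of the more used V families in the light chain V counts of a library (columns, percent), with 95% exact binomial intervals, ordered from the families most raised in Med16 KO to those most lowered. Igkv19 stands at the left with 14.3 and 11.0% in Med16 KO, and Igkv14 at the right with 28.8 and 28.2% in Med16 fl/fl.

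The kappa locus holds V segments in both orientations relative to the joining segments. A segment in the same orientation joins by deletion of the DNA between, and one in the opposite orientation by inversion. Of the 160 kappa segments, 75 lie in the same and 85 in the opposite orientation in GENCODE M21. The former made up 55.9%, 57.6%, 30.9% and 29.2% of kappa V counts and the latter 44.1%, 42.4%, 69.1% and 70.8%. When the locus was divided into 3 stretches of nearly equal segment number, the 53 segments farthest from the joining segments took 51.7%, 54.4%, 23.6% and 22.6%. The 53 in the middle took 25.9%, 23.8%, 34.4% and 28.5%, and the 54 nearest to the joining segments 22.4%, 21.9%, 42.0% and 48.9%. Igkv14-100 and Igkv14-126 both belong to the same-oriented and to the farthest segments, and Igkv19-93 to the opposite and to the middle ones, so a few segments weigh on these shares.

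Diversity differed far less than composition did. Segments with a count numbered 67, 62, 60 and 58. Since the Med16 KO libraries held more light chain V counts, the expected number was also computed at the common depth of 1094 counts, where it was 66.5, 62.0, 53.1 and 51.7. At equal depth fewer segments were thus seen in Med16 KO. The effective number of segments, the exponential of the Shannon entropy of their shares, was 30.4, 29.3, 27.0 and 28.5, with means of 29.9 ± 0.716 and 27.7 ± 1.06 (SD, n = 2 each). The genotypes did not overlap, but the nearest libraries of different genotypes lay closer together than the libraries of either genotype. The inverse Simpson index, which weighs abundant segments more, was 17.5, 18.1, 18.2 and 21.03, so that the order of the genotypes turned with the measure.

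The leading segment took 14.8% (12.9 to 17.0), 14.7% (12.7 to 17.0), 14.3% (13.3 to 15.3) and 11.0% (10.1 to 11.98) of the light chain V counts. The 5 leading segments took 43.4%, 41.3%, 40.5% and 36.9%, and the 10 leading 58.3%, 58.0%, 61.3% and 60.1%. The number of segments needed to reach 50% was 7, 8, 8 and 8. Med16 KO thus had a larger share of its counts in the first 10 segments than Med16 fl/fl, and a smaller share in the first 5. Per kilobase of exon, which allows levels of different segments to be compared, the leading segment was the same in each library and took 15.5%, 15.4%, 14.5% and 11.1%. Exons of the tested segments were 347 to 404 bases long, so length changes these orders little.

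**Figure D4:**
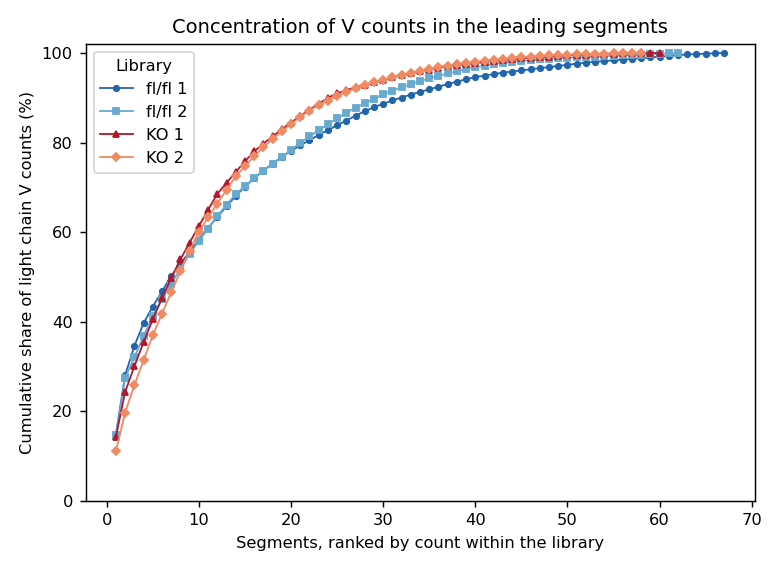
Cumulative share of light chain V counts (y, percent) against the rank of the segment by count within its library (x), 1 line per library. At the tenth segment the Med16 KO lines lie above the Med16 fl/fl lines, where they reach 61.3 and 60.1% against 58.3 and 58.0%.

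Which segments were used was alike within a genotype and unlike between genotypes. The Bray-Curtis distance of segment shares, which is 0 for equal and 1 for disjoint usage, was 0.138 between the Med16 fl/fl libraries and 0.132 between the Med16 KO libraries. It was 0.627 to 0.656 for the 4 pairs across genotypes. On families the distances were 0.0776 and 0.0863 within and 0.390 to 0.420 across genotypes. Spearman's rho was 0.852 and 0.909 within genotypes and -0.01 to 0.09 across them, a description of segments that share libraries and depth. It covered the 61 segments with at least 10 counts over all 4 libraries. A segment could enter through the genotype in which it was high, which can lower rho across genotypes. Of the segments with at least 5 counts, the Med16 fl/fl libraries shared 35, which is 87.5% and 89.7% of each library's. The Med16 KO libraries shared 41, 82.0% and 85.4% of each library's. Across genotypes 29 or 30 were shared, 72.5 to 76.9% of those in Med16 fl/fl and 60 to 62.5% of those in Med16 KO. A limit of 5 counts is a smaller share of the larger light chain V totals of Med16 KO, so these percentages depend on depth.

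The likeness within a genotype was compared with sampling noise. The chi-square per degree of freedom over light chain V segments was 1.92 between the Med16 fl/fl libraries (40 segments) and 6.31 between the Med16 KO libraries (48 segments), where sampling alone gives about 1. Over all genes it was 2.73 and 6.63, so the members of each pair differed beyond sampling noise. Across genotypes it was 47.4 to 52.8 over light chain V segments and 18.3 to 20.3 over all genes. At a given difference in shares, chi-square grows with the number of counts, and Med16 KO had more light chain V counts. The values of 1.92 and 6.31 therefore do not compare the spread within the genotypes. Whether libraries of a genotype shared mice was not tested.

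Other genes of the B lineage were read beside the V segments from lists. Over all genes tested, 8.50% were called higher and 9.89% lower. Among heavy chain constant genes and the J chain, 4 of 7 tested were higher and 2 lower. Ighm, the constant gene of IgM, had 4809, 4523, 22462 and 21476 counts (log2 fold change 2.24, SE 0.04). Jchain, which links IgM and IgA into polymers, had 440, 399, 2153 and 2047 (2.33, SE 0.08). Ighg3 had 0, 0, 164 and 218 counts and was at least 64.1-fold higher in Med16 KO, while Ighg2b had 155, 147, 10 and 8 (-4.05, SE 0.35) and Igha 448, 405, 194 and 246 (-0.95, SE 0.16). The constant genes, like the V segments, thus moved in both directions.

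Of 12 plasma cell genes, 9 were tested, 4 were higher by edgeR and 0 lower, with 0 lower also at an unadjusted p under 0.05 and by DESeq2. Their median log2 fold change was 0.50, and their summed level was 276, 269, 356 and 332 CPM. Derl3, of the degradation of misfolded secretory proteins, had 5, 5, 38 and 55 counts (3.20, SE 0.60), and Xbp1, a transcription factor of secretory cells, rose by 0.50 (SE 0.11). Tnfrsf13b, a receptor for B cell survival factors, rose by 1.03 (SE 0.24). Prdm1, the regulator of plasma cell fate, had 16, 10, 40 and 40 counts (1.62, SE 0.53, adjusted p = 0.044). Sdc1 (CD138), a surface marker of plasma cells, had 31, 31, 59 and 70 counts and missed the threshold (1.06, SE 0.36, adjusted p = 0.055). The most abundant of the list, Edem1, was not called (0.22, SE 0.10), and Mzb1 had 0, 0, 0 and 1 counts. The plasma cell calls depended on the setting: 2 were left without Med16 fl/fl 1, 1 without Med16 fl/fl 2 and 2 by DESeq2, while 5 were called without Med16 KO 1 or without Med16 KO 2.

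All 16 B cell genes were tested, and 2 were higher and 0 lower by edgeR, with 1 lower at an unadjusted p under 0.05 and 0 by DESeq2. Their median log2 fold change was 0.16 and their summed level 464, 477, 490 and 518 CPM. Those called were Cd79a, the signalling chain of the B cell receptor (0.46, SE 0.13), and Cd37 (0.33, SE 0.11), and neither was called without either Med16 fl/fl library. Spib, a transcription factor of B cells, had 338, 387, 298 and 284 counts (-0.31, SE 0.14, adjusted p = 0.144). Of the 14 genes of precursor B cells and recombination, 12 were tested, 1 was higher (Irf8, 0.50, SE 0.11) and 0 lower by edgeR, with 1 lower at an unadjusted p under 0.05 and 1 by DESeq2, and a median of -0.26. Higher calls in the B cell and precursor lists were few, not far from the 8.50% of all genes tested called higher. Rag1, a subunit of the recombinase, had 165, 174, 132 and 55 counts (-0.86, SE 0.30, adjusted p = 0.055). Bach2, a repressor in B cells, was not called (-0.40, SE 0.19), nor was the most abundant gene of the list, Ikzf1 (-0.03, SE 0.06). Of 6 tested T cell genes, edgeR called 0, and 0 had an unadjusted p under 0.05, with values of 0.92 (SE 0.68) for Trbc2, -0.34 (SE 0.36) for Lck, the most abundant, and -0.55 (SE 0.96) for Cd3e. The part of these cell types in the V segment counts was not tested.

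**Figure D5:**
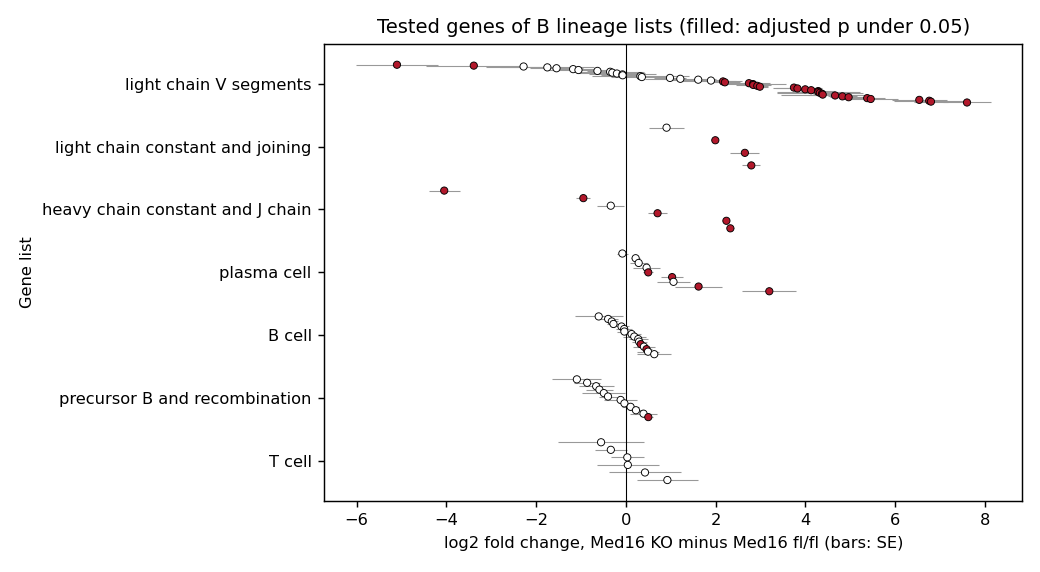
log2 fold change of each tested gene (x, Med16 KO minus Med16 fl/fl) with its SE as a bar, by gene list, filled where the adjusted p is under 0.05. Genes without a count in 1 genotype (Igkv14-100, Igkv3-2, Igkv4-80, Igkv4-57-1 and Ighg3) are left out. The V segments spread to both sides, with a median of 2.47 over all 48 tested, including those left out. A segment could enter the test through the genotype in which it was high, which can move this median. The B cell genes lie near 0 (median 0.16).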

How the data were processed

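Poly(A) RNA of Ter119+ bone marrow cells was read in 2 Med16 fl/fl and 2 Med16 KO libraries. The authors deposited a table of raw whole-number read counts by gene for each library. Per the submitters' processing notes, tools included HTSeq 0.12.4, HISAT2 2.1.0 and FastQC 0.11.7, as well as HOMER and DESeq2, on build GRCm39. How strand was set in counting and which annotation release was used is not given in the sources used here. Rows that name no gene held 67.3 to 67.7% of reads and were left out.

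Counts were fitted over the whole table in R 4.3.3 with edgeR 4.0.16 (filterByExpr by genotype with a count minimum of 10, TMM, quasi-likelihood test, genotype as the only term). Tests were two-sided with Benjamini-Hochberg adjustment over 13052 genes at an adjusted p of 0.05, and DESeq2 1.42.0 served as an alternative. The fit had 2 residual and 13.1 prior degrees of freedom and a common biological coefficient of variation of 0.125. The script was tested on simulated data. Shares, families and diversity were computed in Python 3.11.15 with exact (Clopper-Pearson) 95% intervals (scipy 1.17.1).

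All 163 symbols matched GENCODE M21 on GRCm38, which gave gene type, orientation, order in the locus and sequences. No coordinates are given because the builds differ. Sequence windows of 50 bases were compared among the 163 transcripts only.

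Segments named are the 12 highest by mean CPM, the 10 largest rises and falls among the calls, those with at least 10% of a library's light chain V counts, and the leading segment of each family with at least 2%. From each gene list they are the most abundant gene and the 3 with the smallest adjusted p; neutrophil and monocyte lists are given by counts alone. Other genes and segments were named after their values were seen. The members and lists were chosen with earlier results of these data known.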

Additional observations from a re-analysis of the deposited data

How the results depend on the processing

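Across the alternatives, no called segment changed sign and higher calls numbered 20 to 28 against 26. With the replicate block, 26 higher and 5 lower calls remained, the same 31 segments, although same-numbered libraries did not deviate together (correlation -0.0102), so the numbers do not pair the libraries. Lower calls numbered 1 with DESeq2, which tested fewer segments, and 2 to 10 when 1 library was left out. The light chain V share became 0.0192% and 0.0831% (Med16 fl/fl, Med16 KO) of assigned counts without globin genes, and 0.0603% in Med16 KO without the most abundant segment. The effective number was 32.9 and 29.1 without each library's leading segment, and 27.9 and 26.4 over kappa segments alone. Over segments with at least 10 counts in all it was 28.1 and 27.1, so the genotypes lay closer than in the main setting (29.9 and 27.7). The inverse Simpson index in its place was 17.8 and 19.6. Without each library's leading segment, family shares were 16.1% and 2.92% for Igkv14, 2.97% and 0% for Igkv19, and 22.4% and 18.6% for Igkv4, since that segment belongs to Igkv14 or Igkv19. An assumed biological coefficient of variation of 0.2 or 0.4 and shares per kilobase were chosen after seeing the data. With 0.2, 35 segments were called, all 31 among them. With 0.4, 29 were called, without Igkv16-104 and Igkv1-117 (adjusted p = 0.062 each in edgeR). Per kilobase the effective numbers were 29.6 and 27.7. B cell calls (2 higher) ranged from 0 to 4, precursor B calls from 0 to 2 higher and 0 to 3 lower, and plasma cell calls from 1 to 5. The cause was not tested. Low depth limits segments under about 10 counts per library, which mostly stayed untested.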
